A study of Mus musculus with 12 samples.

Results

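The cytosolic ribosomal proteins are the proteins that, with ribosomal RNA, build the ribosome of the cytoplasm. They were taken here as the table entries named Rpl or Rps with a number and optional trailing letters, together with Rplp0, Rplp1, Rplp2 and Rpsa. Entries of -ps pseudogenes, 10 kinase entries that begin with Rps6k and 1 ribosomal protein binding protein, Rps19bp1, were left out. This gave 91 of the 24674 genes listed, 53 for the large and 38 for the small subunit, spread over 19 chromosomes. By annotation 84 of them are protein coding and 7 are pseudogenes with gene-like names (Rps4l, Rpl37rt, Rps3a3, Rps3a2, Rpl6l, Rpl32l and Rps12l1). The RNA came from wild type C57BL/6 mouse prostate organoids grown from basal cells. Organoids received vehicle, UK5099 (an inhibitor of the mitochondrial pyruvate carrier), sodium butyrate (a short-chain fatty acid and histone deacetylase inhibitor) or both together, called the combination here, with 3 samples in each of 4 groups and no other allele or agent in the labels. The comparison asked how blocking pyruvate entry and inhibiting deacetylases, alone and jointly, changed RNA abundance.

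Ribosomal proteins of the large subunit surround the peptidyl transferase centre, and those of the small subunit surround the decoding site. Each is made in amounts close to those of its partners, and surplus free protein is degraded. Their mRNAs are among the most abundant in growing cells, and most begin with a run of pyrimidines at the cap, the terminal oligopyrimidine tract, through which translation responds to mTOR signalling. Genomes of mammals also carry many processed pseudogenes copied from these mRNAs, so short reads can be hard to place.

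Values were TPM, transcript abundance deposited per gene and scaled to 1000000 in each sample, so that every value is relative to the rest of the library. Depth, recovered from the low values, was between 33251844 and 43498927 fragments a sample. Replicates of a group differed by more than counting error. In the UK5099 and combination groups, replicate 1 stood further from the other replicates (chi-square per gene 7.42 to 7.96) than any other pair within a group (2.03 to 2.91). The labels do not say whether replicates were separate cultures or animals, so p-values measure the spread between these samples, which may be technical. Basal markers (Krt5, Krt14 and Trp63 among them) summed to 6972 to 15367 fragments in 1000000 (FPM) and were highest with UK5099, and luminal markers (Krt8, Krt18 and Krt19 among them) to 2445 to 5389 and were highest in vehicle. Of 6 fibroblast markers, 4 reached 1 FPM, and their sum was 12.2 to 13.1 in vehicle, 15.6 to 17.9 with UK5099, 94.4 to 97.0 with butyrate and 18.6 to 21.8 in the combination. Leukocyte markers (2 of 5 listed) stayed at or below 0.288 and endothelial markers at or below 0.966. In bulk RNA fewer cells of a type and less RNA per cell cannot be told apart, and the part of these shifts in the results was not tested.

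Ribosomal protein RNA made up a larger part of the library in each treated group than in vehicle. The 91 members together held 1.73% ± 0.00275 of fragments in vehicle, 2.01% ± 0.0346 with UK5099, 2.75% ± 0.00941 with butyrate and 2.67% ± 0.0553 in the combination (mean ± SD, n = 3). No treated sample fell within the range of vehicle. Both subunits moved alike: the large subunit went from 0.957% of fragments in vehicle to 1.53% with butyrate, and the small subunit from 0.774% to 1.23%. The 187 -ps pseudogene entries followed the same order, at 1.37% ± 0.00726, 1.59% ± 0.0302, 2.22% ± 0.00931 and 2.12% ± 0.0368. The 78 proteins of the mitochondrial ribosome, a separate ribosome that makes proteins of the respiratory chain, held 0.194% ± 0.00105, 0.180% ± 0.00295, 0.209% ± 0.00225 and 0.198% ± 6.89e-04. Their share with UK5099 was thus below that of vehicle.

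**Figure D1:**
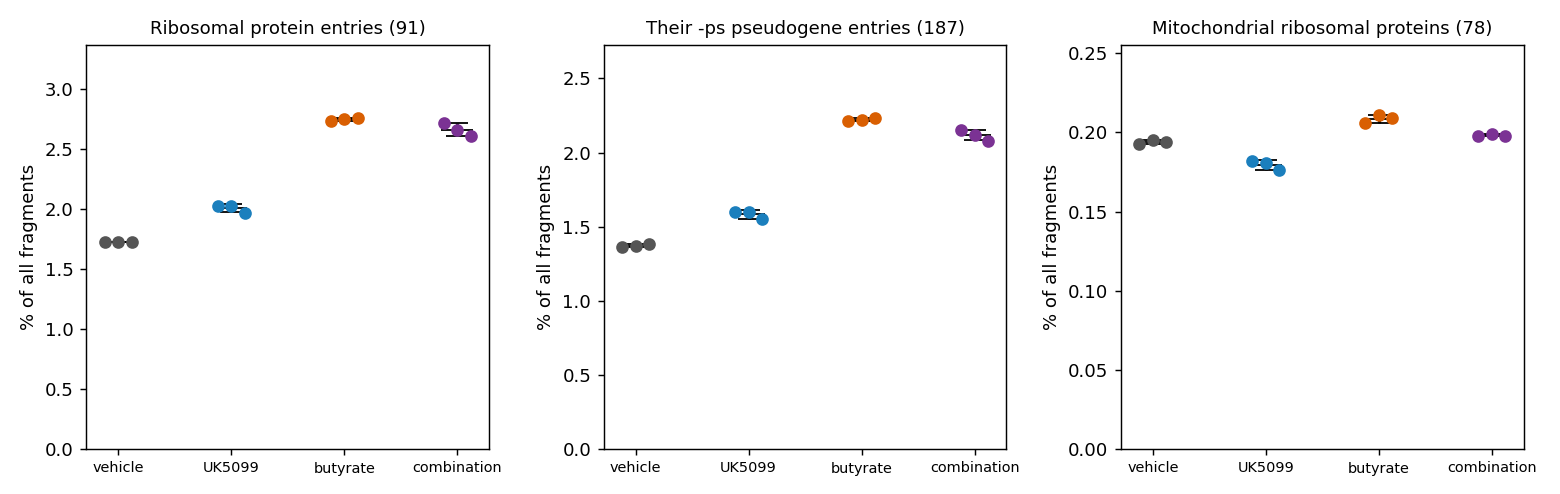
Percent of all fragments held by the 91 ribosomal protein entries (left), the 187 -ps pseudogene entries (middle) and the 78 mitochondrial ribosomal proteins (right) in each of the 12 samples; points are samples and bars mean ± SD (n = 3). Ribosomal protein entries sit at 1.73% in vehicle and 2.75% with butyrate, while the mitochondrial ribosomal proteins stay between 0.180% and 0.209% on average.

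Gene by gene, most members rose with butyrate. Differences from vehicle were fitted for all 24674 genes at once with limma on log2(TPM + 1), and are given as coefficients ± SE on that scale. A gene was called when its Benjamini-Hochberg adjusted p-value was under 0.01. With butyrate 76 members were called higher, 3 lower and 12 not called, and the median coefficient was 0.34. Over all genes 9.70% were called higher and 35.9% lower. With UK5099 50 members were called higher and 3 lower, against 8.24% and 24.7% of all genes, with a median of 0.13. In the combination 72 were called higher and 3 lower, against 10.1% and 40.8%, with a median of 0.24. No member had a coefficient above 1 in size in any of these comparisons. Of all genes 1.84% with UK5099, 3.54% with butyrate and 6.42% in the combination were called with a coefficient of that size.

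These counts depend in part on how libraries are scaled, because the median gene moved down in deposited TPM in each treated group. For the 13345 genes that averaged 1 TPM or more, the middle coefficient was −0.12 with UK5099, −0.30 with butyrate and −0.41 in the combination. Entries annotated as pseudogenes held 42.3%, 43.0%, 46.1% and 43.8% of deposited TPM in vehicle, UK5099, butyrate and the combination. Their shares of fragments were 5.78%, 6.13%, 7.56% and 7.45%. TPM have a fixed total, and the part of these entries in the fall of the median gene was not tested. When TPM was rescaled by the median of ratios, which sets the typical gene near 0, 87 members were called higher and 1 lower with butyrate (18.5% and 20.3% of all genes), with a median of 0.65. On that scale 74 were called higher and 2 lower with UK5099 (13.5% and 13.7% of all genes), with a median of 0.27. In the combination 87 were called higher and 1 lower (21.7% and 22.5%), with a median of 0.70, and the coefficients of Rps12, Rpl12 and Rps26 passed 1. Most members thus had the same direction on both scales, while the size was not the same.

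**Figure D2:**
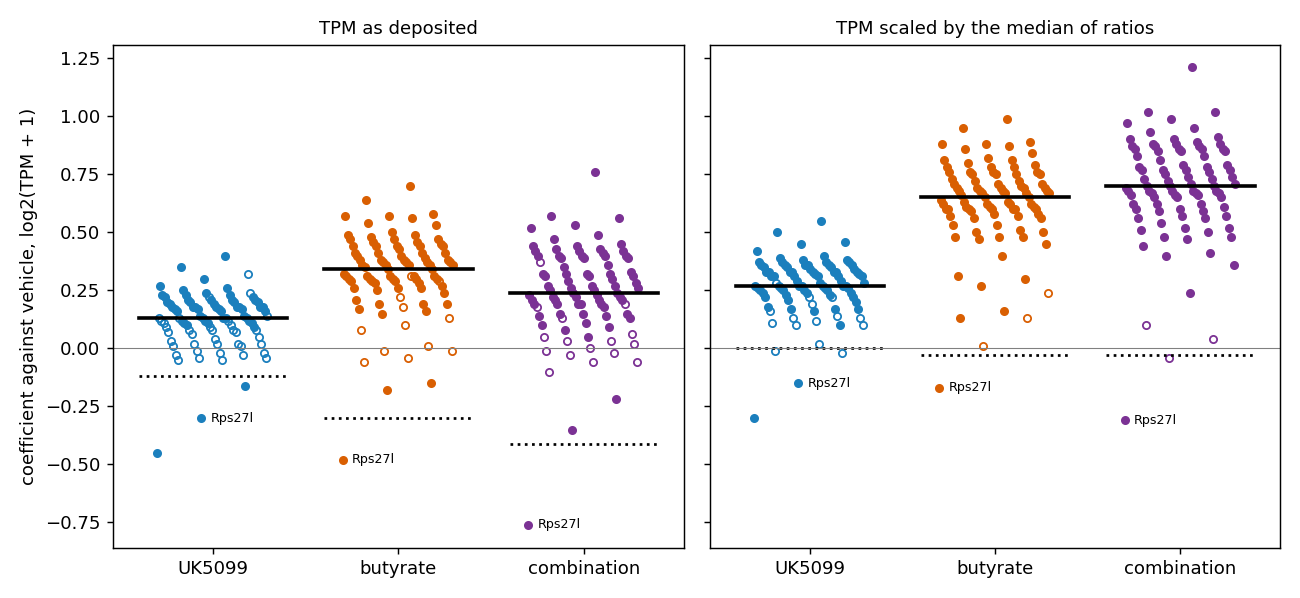
Coefficient against vehicle on log2(TPM + 1) for each of the 91 members with UK5099, butyrate and the combination, from TPM as deposited (left) and scaled by the median of ratios (right); filled points were called by limma, solid lines are the median of the members and dotted lines the median of the 13345 genes averaging 1 TPM or more. The median of the members lies at 0.34 with butyrate on the left and 0.65 on the right, and Rps27l lies below 0 in all 6 columns.

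Large and small subunit proteins were alike in these counts. With butyrate 44 of 53 large subunit members were called higher and 2 lower, with a median of 0.31, and 32 of 38 small subunit members higher and 1 lower, with a median of 0.36. With UK5099 the counts were 27 higher and 1 lower for the large and 23 higher and 2 lower for the small subunit. In the combination they were 43 higher and 2 lower for the large, and 29 higher and 1 lower for the small subunit.

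The highest members with butyrate came from both subunits. Rpl5, which carries 5S ribosomal RNA into the large subunit and can bind Mdm2, stood at 14.3, 13.5 and 15.4 TPM in vehicle, 15.3, 16.5 and 15.2 with UK5099, 24.9, 22.8 and 24.1 with butyrate and 20.6, 21.6 and 21.3 in the combination. The butyrate and combination samples all lay above vehicle, while UK5099 and vehicle overlapped. Its coefficient was 0.70 ± 0.05 with butyrate (limma, adjusted p = 1.40e-06) and 0.53 ± 0.05 in the combination, and 0.12 ± 0.05 with UK5099, which was not called, though the median of ratios gave 0.25, called higher. Rpl11, the partner of Rpl5 in carrying 5S RNA, rose by less, at 0.30 ± 0.05 with butyrate. Rps26, a small subunit protein near the mRNA exit channel, stood at 668, 664 and 664 TPM in vehicle, 845, 855 and 838 with UK5099, 1029.8, 1048 and 1027 with butyrate and 996, 968 and 971 in the combination. In TPM none of the 4 groups overlapped for Rps26, while in FPM butyrate (546 to 563) and the combination (541 to 559) did. Its coefficients were 0.35 ± 0.01 with UK5099, 0.64 ± 0.01 with butyrate (limma, adjusted p = 9.59e-10) and 0.56 ± 0.01 in the combination.

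Rps12, a small subunit protein on the beak of the subunit, had its highest values in the combination. It stood at 43.9, 43.8 and 41.7 TPM in vehicle, 51.3, 48.0 and 53.1 with UK5099, 67.8, 64.6 and 61.5 with butyrate and 73.2, 73.0 and 74.7 in the combination. The 4 groups did not overlap. Its combination coefficient was 0.76 ± 0.04 (limma, adjusted p = 1.70e-07), the highest of all members on the deposited scale and, at 1.21, by the median of ratios. The Rps12 entry held only 9.91% of the fragments of Rps12 and its 9 -ps entries together. The pseudogene Rps12l1 had a smaller combination coefficient, 0.35 ± 0.02. Rpl12, which helps form the stalk base where elongation factors bind, followed with 0.57 ± 0.05 in the combination and 0.45 ± 0.05 with butyrate. Rps10 (0.58 ± 0.05) and Rpl27a (0.57 ± 0.02) were among the 5 highest with butyrate, and Rpl13 (0.52 ± 0.03) among the 5 highest in the combination.

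With UK5099 alone the highest member was Rpl10a, a large subunit protein of the L1 stalk. Its values were 127, 139.6 and 128 TPM in vehicle, 172, 173 and 175 with UK5099, 164, 163 and 163 with butyrate and 191, 183 and 179 in the combination. Every treated sample lay above vehicle. The Rpl10a entry held 11.7% of the fragments of Rpl10a and its 2 -ps entries together. The UK5099 coefficient was 0.40 ± 0.04 (limma, adjusted p = 1.46e-05) against 0.31 ± 0.04 with butyrate, an order that turned by the median of ratios (0.55 and 0.62). The next highest called with UK5099 were Rps26, Rps7 (0.30 ± 0.04) and Rpl27a (0.27 ± 0.02), and Rps3a3, at 0.32 ± 0.08, missed the limit.

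The P-stalk recruits elongation factors to the large subunit. Rplp0, its anchor, rose in all 3 comparisons, by 0.21 ± 0.02 with UK5099, 0.38 ± 0.02 with butyrate and 0.21 ± 0.02 in the combination. Rplp1 rose by 0.21 ± 0.03, 0.19 ± 0.03 and 0.15 ± 0.03. Rplp2, which pairs with Rplp1 in the stalk, stood at 70.8, 68.8 and 68.7 TPM in vehicle, 74.9, 69.4 and 68.3 with UK5099, 90.9, 89.9 and 88.4 with butyrate and 93.1, 90.7 and 90.2 in the combination. UK5099 and vehicle overlapped for Rplp2, with a coefficient of 0.03 ± 0.03 that was not called (0.18 by the median of ratios, called higher), and the butyrate and combination samples lay above both. Rpsa, a small subunit protein that also serves as a laminin receptor, rose by 0.37 ± 0.02 with butyrate and 0.19 ± 0.02 in the combination. Rps6, the substrate of the S6 kinases, rose by 0.41 ± 0.03 with butyrate and 0.30 ± 0.03 in the combination. Rpl39, which lines the exit tunnel, rose by 0.41 ± 0.03 and 0.40 ± 0.03 there. The UK5099 calls of Rps6 (0.13 ± 0.03) and Rpl39 (0.13 ± 0.03) lay close to the limit, and were lost without 1 sample in 9 and 4 of 12 such fits.

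Rps27l departed from the rest of the family. It encodes a small subunit protein almost identical to the one made by Rps27 and is a known transcriptional target of p53. Its values were 58.0, 54.9 and 54.4 TPM in vehicle, 44.6, 46.2 and 44.4 with UK5099, 40.4, 39.9 and 39.1 with butyrate and 32.6, 32.8 and 31.8 in the combination. All treated samples lay below vehicle. In TPM no groups overlapped, while in FPM UK5099 (30.7 to 32.7) and butyrate (32.2 to 33.4) did. The coefficients were −0.30 ± 0.03 with UK5099 (limma, adjusted p = 1.65e-05), −0.48 ± 0.03 with butyrate (adjusted p = 2.74e-07) and −0.76 ± 0.03 in the combination (adjusted p = 6.86e-09). After scaling by the median of ratios they were −0.15, −0.17 and −0.31, each still called by limma (adjusted p = 0.00244, 0.00103 and 1.10e-05). Quantile normalisation left the butyrate coefficient at −0.09, which was not called. Its partners went the other way. Rps27rt, another Rps27 gene, stood at 4723, 4778 and 4754 TPM in vehicle and 6579.6, 6550.4 and 6619.6 with butyrate, and its coefficients were 0.20 ± 0.02, 0.47 ± 0.02 and 0.39 ± 0.02 for UK5099, butyrate and the combination. Rps27 itself, listed at 11.4, 13.2 and 11.5 TPM in vehicle, had coefficients of 0.24, 0.31 and 0.43, of which the last was called.

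Rpl22l1 and Rpl7l1, paralogues of Rpl22 and Rpl7, also lagged behind their partners. Rpl22l1 stood at 142, 142 and 136 TPM in vehicle and 136, 139 and 133 with butyrate, where Rpl22 went from 133, 133 and 132 to 188, 189 and 188. Its coefficients of −0.05, −0.04 and −0.06 were not called, and the median of ratios gave 0.10, 0.27 and 0.40, the last 2 called. Rpl7l1, an Rpl7-like protein that works in large subunit assembly, stood at 47.6, 51.2 and 49.7 TPM in vehicle, 43.7, 44.5 and 44.0 with UK5099, 44.1, 44.2 and 42.4 with butyrate and 38.6, 38.1 and 39.0 in the combination. It was called lower in each comparison (−0.16, −0.18 and −0.35), but the sign of its butyrate coefficient turned with scaling by the median of ratios (0.13, called) and so did that of the combination (0.10, not called), and its UK5099 call was lost (−0.02).

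A level per exonic base lets each paralogue be set against its partner, and the ratio does not depend on scaling between libraries. Rps27l stood at 4.92% ± 0.200 of Rps27 and Rps27rt together in vehicle, 3.46% ± 0.0365 with UK5099, 2.54% ± 0.0524 with butyrate and 2.19% ± 0.0375 in the combination (SD, n = 3). Rpl22l1 stood at 37.0% ± 0.658, 31.5% ± 1.36, 25.2% ± 0.472 and 26.8% ± 0.965 of Rpl22. For Rpl7l1 the share of Rpl7 was 9.99% ± 0.446, 8.75% ± 0.132, 7.38% ± 0.177 and 7.36% ± 0.136. In these 3 pairs, chosen after their values were seen, every treated sample lay below every vehicle sample. This did not hold for Rpl36al against Rpl36a or Rpl39l against Rpl39, where at least 1 butyrate sample lay within the range of vehicle.

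**Figure D3:**
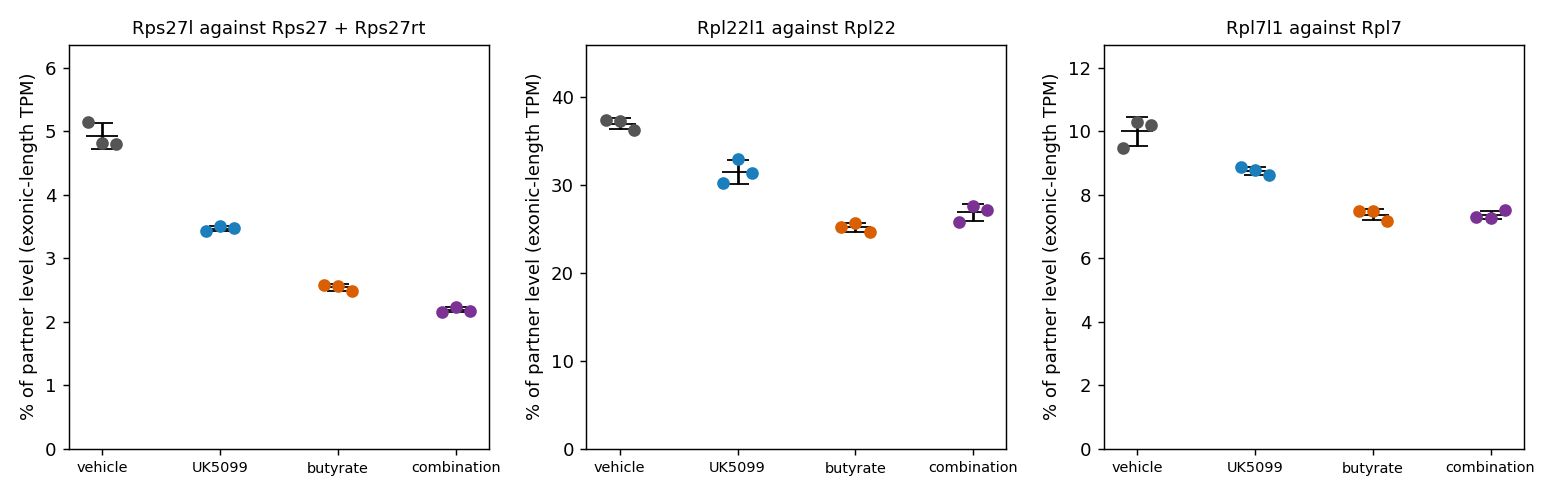
Level of Rps27l, Rpl22l1 and Rpl7l1 as a percent of the level of the named partner, from TPM recomputed with exonic length, in each of the 12 samples; points are samples and bars mean ± SD (n = 3). Rps27l falls from 4.92% of its partners in vehicle to 2.19% in the combination, and the other paralogues plotted are also highest in vehicle.

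Rps4l, a pseudogene by annotation, was the lowest member with UK5099. It stood at 103, 98.7 and 106 TPM in vehicle, 74.6, 75.5 and 74.2 with UK5099, 113, 108 and 117 with butyrate and 91.0, 101 and 93.9 in the combination. Its UK5099 coefficient was −0.45 ± 0.04 (limma, adjusted p = 2.59e-05) and −0.30 by the median of ratios. With butyrate it was 0.13 ± 0.04, which was not called on the deposited scale, and 0.45, called higher, by the median of ratios. The other paralogue entries followed the family or were too low to tell. Rpl36al rose by 0.19 ± 0.01 with butyrate and Rpl32l by 0.47 ± 0.11, a call lost in 4 of the 12 fits that left out 1 sample, while Rpl39l and Rps23rg1 never reached a group mean of 1 TPM and were called in no comparison.

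Rpl10, a late-joining large subunit protein next to the peptidyl transferase centre, was called lower on the deposited scale, with values of 69.2, 71.3 and 65.4 TPM in vehicle, 68.3, 65.9 and 65.8 with UK5099, 61.2, 59.4 and 64.5 with butyrate and 58.4, 58.8 and 59.6 in the combination. The coefficients were −0.15 ± 0.04 with butyrate (limma, adjusted p = 0.00579) and −0.22 ± 0.04 in the combination (adjusted p = 5.36e-04), and the median of ratios turned both, to 0.16 and 0.24, each called higher. The butyrate call was lost in 5 of the 12 fits that left out 1 sample. The Rpl10 entry held 2.57% of the fragments of Rpl10 and its 4 -ps entries together. Summed with those entries, in FPM, its butyrate coefficient was 0.50. The change to FPM is part of that, since the Rpl10 entry alone had means of 30.9 FPM in vehicle and 34.6 with butyrate. Rpl9, with 1.84% of its family, had −0.06 ± 0.06 alone in deposited TPM and 0.71 summed in FPM. The Rpl9 entry alone had means of 12.7 FPM in vehicle and 15.0 with butyrate. Rpl38, tied in mice to the translation of Hox mRNAs, held 20.4% of its family and was called in no comparison on the deposited scale, with 0.10 ± 0.05 for butyrate. Its combination coefficient was −0.03 ± 0.05 alone in deposited TPM, 0.41 by the median of ratios and 0.53 summed in FPM. The Rpl38 entry alone had means of 17.6 FPM in vehicle and 22.5 in the combination.

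Sharing of fragments with pseudogenes touched much of the family. Of the 91 members, 56 had -ps entries of their own, and in 32 of these the member held under 50% of the fragments of the family, with a median of 46.1%. Among member values under 1000 fragments, 14.6% came out as whole fragments, against 75.9% for protein-coding genes in general. These sets were not matched for level below that limit. With butyrate 50 of the 56 members with -ps entries were called higher and 2 lower, and 26 of the 35 without were called higher and 1 lower. Only entries named -ps count here, so the 35 may also share fragments with other pseudogenes. Among the 35 are the 7 members annotated as pseudogenes, and Rps3a1. Its pseudogene Rps3a2 had a mean of 484 FPM in vehicle, against 418 for Rps3a1. The -ps entries themselves had 78 of 187 called higher with butyrate and a median of 0.32. When each member was summed with its own -ps entries in FPM, 88 were called higher and 1 lower with butyrate, with a median of 0.67, and the entry that was lower was Rps27l. The change from TPM to FPM acts here as well as the summing. Without summing, the members already went from 1.73% of fragments in vehicle to 2.75% with butyrate. Shares of all genes called in FPM are not given here.

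The joint effect of the treatments was smaller than the sum of the single effects. The interaction coefficient was called lower in 53 members, against 6.38% of all genes, and higher in 0 members, against 7.01%. At an unadjusted p-value under 0.05, limma gave 69 members below 0 and 1, Rps4l, above. The share of all genes at that limit was not counted. Of all genes 1.01% had a called interaction above 1 in size. The median interaction of the members was −0.23, and 85 of 91 were below 0, while the median of genes averaging 1 TPM or more was 0.00. Of those 13345 genes, 6766 were above 0. By the median of ratios 52 members were called lower, against 6.68% of all genes lower and 6.82% higher, with the same median of −0.23. The median sum of the single effects was 0.47 and the median combination coefficient 0.24. In 80 of 91 members the combination lay below butyrate alone on the deposited scale. There the median of genes averaging 1 TPM or more was also lower, at −0.41 in the combination and −0.30 with butyrate. The order of the members depends on scaling, since by the median of ratios their medians were 0.70 in the combination and 0.65 with butyrate. Without replicate 1 of the combination the interaction was called in 59 members, and without replicate 1 of UK5099 in 51.

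Rps7, a small subunit assembly protein that can bind Mdm2, had the largest interaction. Its values were 50.8, 48.7 and 48.6 TPM in vehicle, 57.8, 65.4 and 60.7 with UK5099, 65.9, 62.9 and 67.5 with butyrate and 59.0, 56.9 and 57.8 in the combination. Each single treatment lay above vehicle, and the combination lay below all butyrate samples. The interaction was −0.48 ± 0.06 (limma, adjusted p = 5.16e-04). The Rps7 entry held 8.99% of the fragments of Rps7 and its 2 -ps entries together. Rps26 followed with −0.43 ± 0.02 (adjusted p = 1.31e-06 by limma), and Rps3a3 had −0.41 ± 0.11, which was not called. Rpl27a (−0.40 ± 0.02) and Rplp0 (−0.38 ± 0.03) were close behind. For Rplp2 (−0.00 ± 0.05), Rps12 (−0.04 ± 0.06), Rpl7l1 (−0.01 ± 0.04) and Rps27l (0.01 ± 0.04) the interaction was not called.

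**Figure D4:**
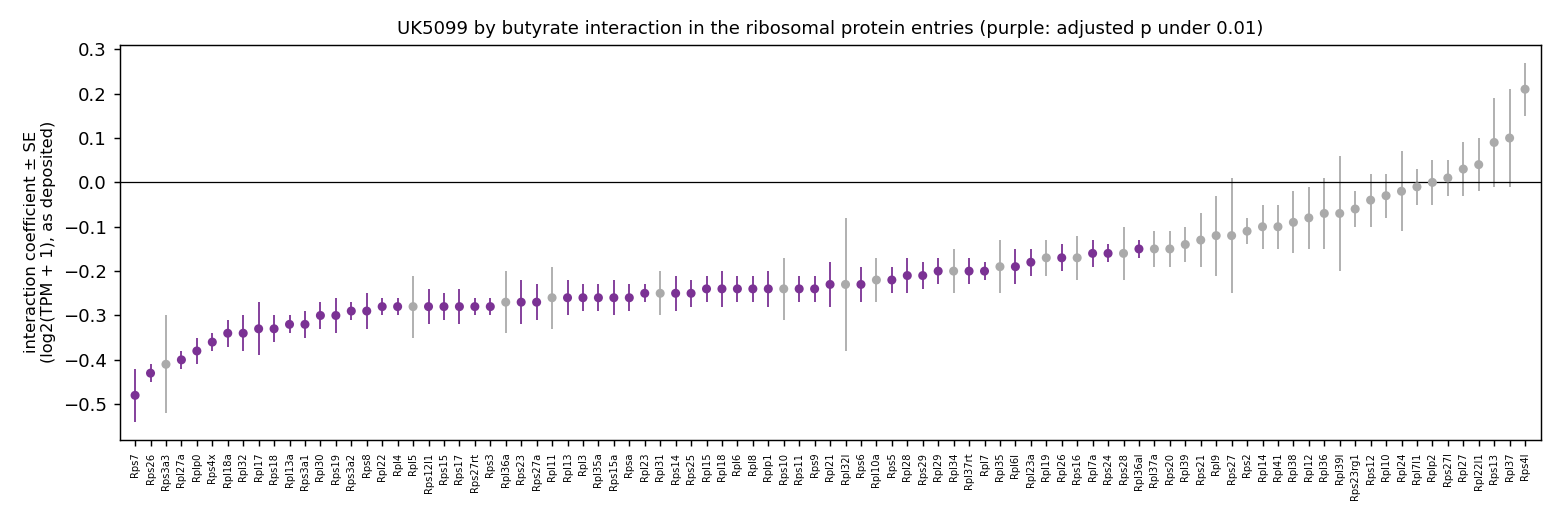
Interaction coefficient of UK5099 and butyrate ± SE on log2(TPM + 1) for the 91 members in rising order; purple points were called by limma and grey points were not. The coefficients run from −0.48 for Rps7 up to Rps4l, and 85 of 91 lie below 0, with a median of −0.23 on the deposited scale and by the median of ratios. Of the 13345 genes averaging 1 TPM or more, 6766 were above 0 on the deposited scale.

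Promoter windows from RefSeq (GRCm38.p6) were matched to 66 members, with 77 annotated starts. The windows below run from 20 bases before to 10 bases from the start, in the direction of the gene. Capitals mark the part inside the window of a run that opens with C and goes on with at least 4 of C or T and begins within 10 bases of the start. A run counted so may be the later part of a longer run of C and T that opens earlier. The windows are shown for some of the highest and lowest members, for paralogues and their partner Rps27, and for Rpl38 and Rps6, which were chosen by role.
Rpl38, chr11:114668560-114668589, plus strand: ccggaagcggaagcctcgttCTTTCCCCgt
Rpl27a, chr7:109519175-109519204, plus strand: cgcgagacttcgtgagCTCCTCCCTTTTCC
Rps6, chr4:86857358-86857387, minus strand: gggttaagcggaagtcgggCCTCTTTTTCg
Rps26, chr10:128626497-128626526, minus strand: agcgggtcgggcaagccgccggatCCTCTT
Rpl5, chr5:107900508-107900537, plus strand: ctctttctcacgtcgcttgcgtgctggtgg
Rps27, chr3:90213639-90213668, minus strand: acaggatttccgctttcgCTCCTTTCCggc
Rps27rt, chr9:114982730-114982759, minus strand: ggttaagaacttatcccttgCTTTCCggcg
Rps27l, first start, chr9:66946066-66946095, plus strand: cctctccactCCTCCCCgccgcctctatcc
Rps27l, second start, chr9:66946393-66946422, plus strand: agctcaccatgggcttcagggtcactaacg
Rpl22l1, chr3:28805488-28805517, plus strand: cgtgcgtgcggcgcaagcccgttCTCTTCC
Rpl7l1, chr17:46782647-46782676, minus strand: gcccggtgaggctgcgcaagcgcagtagct

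Rpl38 and Rps27rt have the run at the annotated start itself, and Rps27 and Rps6 within 2 bases before it. In Rps27l the counted run begins only 10 bases before the first start, as the later part of a longer one that opens further upstream. No such run begins within 10 bases of the start in Rpl5 or Rpl7l1, though Rpl5 has a run of C and T at the far end of the window. For the 77 starts of the 66 matched members, such a run began within 10 bases of the start in 54.5%. This counts later parts of longer runs as well. In the RefSeq promoter table it was 30.7% of the 32851 starts of 27025 genes. Exactly at the start the shares were 19.5% against 2.51%. The letters CTTTC, which overlap with the run, lay within 10 bases of the start in 22.1% against 3.10%, and on the other strand in 2.60% against 3.00%. Members with and without the run were close in their values. The 40 members with it had a median butyrate coefficient of 0.37 and the 26 without it 0.34, or 0.68 and 0.65 by the median of ratios. Interaction medians were −0.23 with the run and −0.18 without.

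Levels of the members in vehicle spanned a wide range per exonic base. The median was 178 TPM recomputed with exonic length, 34 members were under 100 and 11 over 1000. Rps27rt (2678), Rplp0 (1919), Rplp1 (1862) and the pseudogene Rps3a2 (1775) were highest, and Rps23rg1 (0.176), Rpl39l (0.486) and Rps27 (7.34) lowest. Rps27 and Rps27rt encode the same kind of protein, and how their fragments were divided was not tested.

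Some other genes of translation rose with butyrate. Fau, which encodes a small subunit protein under another name, and Rack1, the scaffold on the small subunit, both rose with butyrate, by 0.34 ± 0.03 and 0.35 ± 0.01. Of 10 translation elongation factors 5 were called higher and 2 lower with butyrate, or 9 and 1 by the median of ratios. Eef2, which moves the ribosome along the mRNA, rose by 0.41 ± 0.02. Of 11 host genes of small nucleolar RNAs, transcripts that also begin with pyrimidine tracts, 8 were called higher and none lower with butyrate, and 10 by the median of ratios. Gas5 went from 135 ± 2.88 TPM in vehicle to 226 ± 3.57 with butyrate (coefficient 0.73 ± 0.02), and Snhg15 reached 25.5 ± 0.489 TPM in the combination (1.15 ± 0.02).

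The assembly factors and ribosomal RNA processing genes went down on the deposited scale. Of 44 measured, 40 (90.9%) were called lower and 0 higher by limma with butyrate, where 57.6% of genes averaging 1 TPM or more were called lower and 11.7% higher, and 41 lower and 1 higher in the combination, with medians of −0.42 and −0.51. By the median of ratios 20 were lower and 4 higher with butyrate, with a median of −0.13. Utp20, part of the processome of the small subunit, fell from 4.13 ± 0.188 TPM in vehicle to 1.26 ± 0.111 in the combination (−1.19 ± 0.04). Pno1, needed for small subunit maturation, fell from 26.1 ± 0.514 to 12.2 ± 0.670 (−1.04 ± 0.06). By the median of ratios these were −0.87 and −0.60. Nob1, the nuclease that finishes 18S ribosomal RNA, was the gene of this list called higher in the combination, at 0.22 ± 0.03. Of 13 genes of RNA polymerase I transcription 7 (53.8%) were called lower and 1 higher with butyrate, a share near that of all genes at this level, and 3 and 4 by the median of ratios. Of 28 initiation factors 20 were called lower and 6 higher with butyrate, or 12 and 12 by the median of ratios. Eif6, which keeps the large subunit from joining too early, fell by 1.16 on the log2(TPM + 1) scale with butyrate (−0.85 by the median of ratios), and Eif4g1, the scaffold of cap binding, by 1.05 in the combination (−0.59). Of the 78 mitochondrial ribosomal proteins 47 (60.3%) were called lower and 1 higher with butyrate, the first near the 57.6% of genes averaging 1 TPM or more, a split that turned to 9 lower and 28 higher by the median of ratios.

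**Figure D5:**
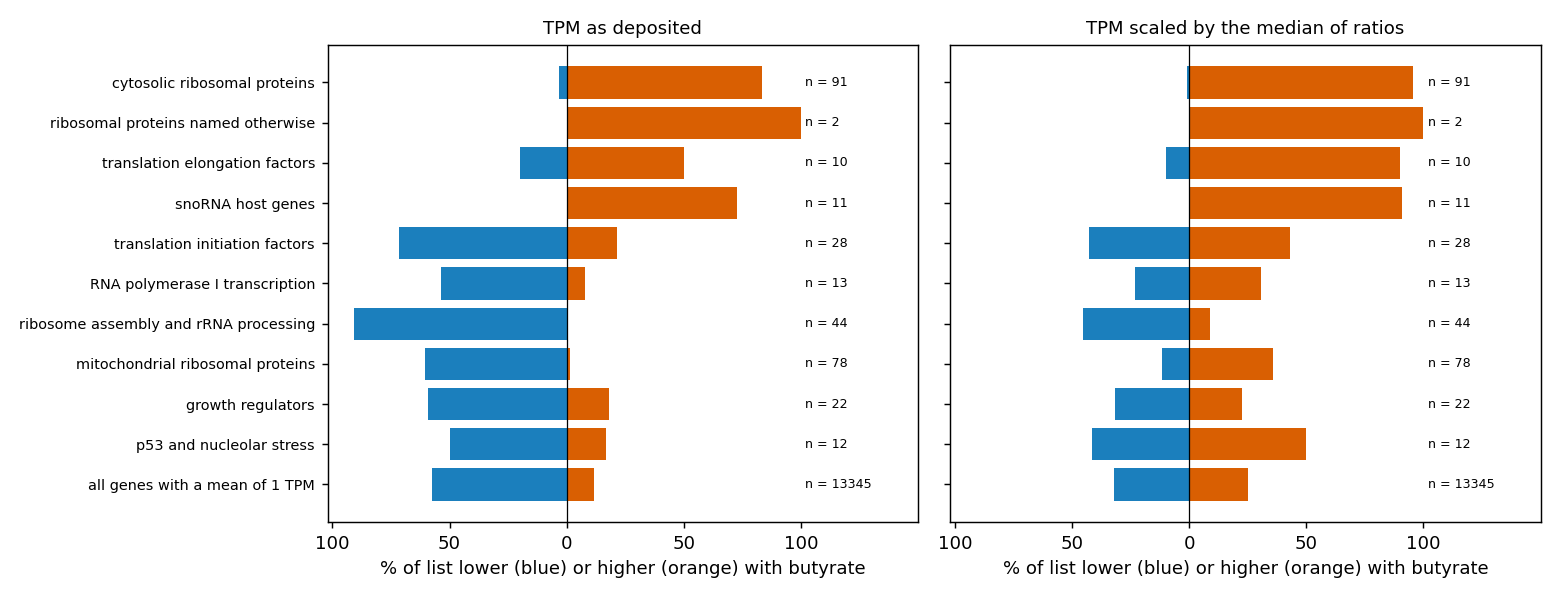
Percent of each gene list called lower (blue, to the left) or higher (orange, to the right) with butyrate by limma, from TPM as deposited (left) and scaled by the median of ratios (right); n is the number of genes measured. Of the 91 ribosomal proteins 83.5% are called higher on the left, and of the 44 assembly and ribosomal RNA processing genes 90.9% are called lower there; the mitochondrial ribosomal proteins go from mostly lower on the left to mostly higher among called genes on the right.

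Among 22 regulators of growth and of ribosomal protein mRNA, 13 (59.1%) were called lower and 4 higher with butyrate, close to the 57.6% lower and 11.7% higher of genes averaging 1 TPM or more, and 7 and 5 by the median of ratios. Myc, a transcription factor that drives ribosome production, had vehicle samples at 88.3 ± 2.19 TPM, UK5099 samples at 132 ± 3.60, butyrate samples at 202 ± 2.43 and combination samples at 209.8 ± 3.98 (mean ± SD, n = 3), with coefficients of 0.58 ± 0.03, 1.18 ± 0.03 and 1.24 ± 0.03. Mnt, a repressor that competes with Myc for Max, went down from 28.7 ± 0.795 TPM in vehicle to 10.8 ± 0.345 with butyrate (−1.33 ± 0.03). Ddit4, an inhibitor of mTOR signalling, fell by 1.10 on the same scale with butyrate. The values of Myc, Mnt and Ddit4 are on the deposited scale, and those by the median of ratios are not given here. In the combination Mxd4 (−1.19 ± 0.03), a Max partner, and Eif4ebp2 (−1.14 ± 0.03), a repressor of cap-dependent translation, fell too, with −0.77 and −0.69 by the median of ratios. Of 12 genes of p53 and nucleolar stress 6 were called lower and 2 (16.7%) higher with butyrate, again near the shares of all genes averaging 1 TPM or more, and 5 and 6 by the median of ratios. Trp53 went from 72.1 ± 1.24 TPM in vehicle to 49.1 ± 0.493 with UK5099, 37.2 ± 0.270 with butyrate and 29.5 ± 0.678 in the combination (−0.55, −0.94 and −1.26, or −0.40, −0.63 and −0.81 by the median of ratios). Mdm2, the ubiquitin ligase of p53, fell by 1.01 on the deposited scale in the combination and by 0.56 by the median of ratios.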

How the data were processed

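RNA sequencing of 12 organoid samples was deposited by the authors as 1 table of TPM. The study's methods name trimming with fastp, alignment with STAR to GRCm38 and RSEM, while the submitters' processing notes name STAR 2.7.9a, Partek and GRCm39. The table names no build, so its coordinates are not printed. Per the labels, ribosomal RNA was depleted, mRNA enriched and the second strand marked with dUTP, while the study's methods name another kit, for stranded mRNA, and another sequencer. Which applies to these libraries bears on what a share of the library means. The counting setting for strand is not given in the sources used here. The deposited TPM divide fragments by the whole genomic span (stop minus start in 100.0% of genes). TPM times that span, rescaled to 1000000, gave FPM. Exonic lengths were those of GENCODE.

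Groups came from the labels. limma 3.58.1 (R 4.3.3) was run on log2(TPM + 1) for all 24674 genes and 12 samples, with UK5099, butyrate and their interaction, a factorial model like that of the study. The pseudocount of 1 was chosen here. Low values were not filtered, and 89 members reached a mean of 1 TPM in a group. Genes were called at a Benjamini-Hochberg adjusted p-value under 0.01. Python 3.11.15 and pandas 2.3.3 were used for tables. The steps were tested on simulated data in which only butyrate changed genes. That test did not cover the interaction or a shift of the whole library. Members named were the 5 highest and 5 lowest of each comparison, the 3 largest interactions, paralogues, and 9 chosen by role. Genes of other lists were named if past both limits, or highest or lowest; some were added for their role after their values were seen. Members and lists were chosen with earlier results of these data known. Depth came from the low values and covers counting error only. Of values under 12 fragments 76.0% to 77.2% were whole fragments (tolerance 0.02), and of all nonzero values 59.0% to 61.3%. Alternatives changed scaling, pseudocount, filter, length, prior, samples, replicate block and the summing of pseudogenes. 1 gene of the lists is not reported here.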

Additional observations from a re-analysis of the deposited data

Results flagged for a closer look

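In 53 members the effect of UK5099 differed between organoids with and without butyrate by the interaction term of limma (adjusted p-value under 0.01). The largest were Rps7, with an interaction coefficient of −0.48, and Rps26, with −0.43. Both kept the call after scaling by the median of ratios.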

How the results depend on the processing

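Each treatment kept many more members called higher than lower under every alternative run. Scaling mattered most. TPM are relative, and the typical gene went down in deposited TPM. Pseudogene entries held 42.3% of deposited TPM in vehicle and 46.1% with butyrate, and their part in that fall was not tested. Members called lower with butyrate, 3 on the deposited scale, were 1 by the median of ratios, by the total of other genes, with exonic length, in FPM (alone or with the median of ratios) and when summed with their pseudogenes (either scaling). With quantile normalisation limma called 0. In the combination 3 became 1 by the median of ratios, quantile normalisation, FPM (either scaling) and summing (either scaling). With UK5099 the 50 called higher became 76 when members were summed with pseudogenes and scaled by the median of ratios, and 36 in a fit of only the groups compared. The settings that join FPM or summing with the median of ratios were chosen after seeing the data. Values are given below as quantile, median of ratios, FPM without and with the median of ratios, then summed without and with it. Rpl10 turned with butyrate to 0.19, 0.16, 0.16, 0.16, 0.50 and 0.51, and in the combination to 0.19, 0.24, 0.16, 0.24, 0.30 and 0.38. Rpl22l1 turned with butyrate to 0.22, 0.27, 0.27, 0.27, 0.27 and 0.27, and in the combination to 0.23, 0.40, 0.32, 0.40, 0.32 and 0.40. For Rpl7l1 the values were 0.19, 0.13, 0.13, 0.13, 0.13 and 0.14 with butyrate, and 0.12, 0.10, 0.03, 0.10, 0.03 and 0.11 in the combination. In the combination Rpl38 turned to 0.44, 0.41, 0.33, 0.41, 0.53 and 0.61, and Rps4l to 0.27, 0.36, 0.27, 0.35, 0.27 and 0.35. Rpl9 with butyrate turned to 0.31 by quantile, 0.23 and 0.23 in FPM, and 0.71 and 0.72 summed. Rps2 with UK5099 turned to 0.10 by the median of ratios, and Rps3a2 to −0.05 with UK5099 and −0.03 in the combination by quantile. Beyond what the scaling itself shifts, the cause was not tested.

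Leaving out each sample in turn gave 42 to 53 members higher and 3 to 3 lower with UK5099, 75 to 77 higher and 2 to 3 lower with butyrate, 66 to 70 higher and 3 to 3 lower in the combination, and 45 to 59 with a called interaction. The 18 correlations of deviations between same-numbered samples were between −0.11 and 0.03, so no pairing by replicate number showed. These correlations cannot tell whether such samples shared a culture or animal, which the labels do not say. With the replicate number as a block, 46 members were higher and 3 lower with UK5099, 77 and 2 with butyrate, 69 and 3 in the combination, and 49 had a called interaction. Over coefficients of the named members and medians of the family, 2106 values were kept, 69 lost and 86 gained a call, and 56 turned. A member was kept if it stayed on the same side of the limit, and its sign was not checked where neither fit called it. The other 24 values, which moved, were all medians of the family. Low members such as Rpl39l and Rps23rg1 rest on few fragments, and where a pseudogene takes most fragments of a family the entry of the member alone is a small part of its signal.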
